A study of Mus musculus with 6 samples.

Results

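Transcripts of 35 genes of melanocyte identity, pigment synthesis and melanosome trafficking were examined in RET mouse melanoma cells, out of 22180 genes with exactly 1 symbol in the array annotation. The 35 were taken by name, and each was represented by the row with the highest mean over the 6 arrays. All 35 had a row, and Hps1 alone had a second one. The samples were 3 cultures of RET cells, labelled as C57BL\6 in strain, that carried a non-targeting short hairpin RNA (shRNA), and 3 cultures of the same line that carried an shRNA against Angpt2, called Angpt2 shRNA-1. Both groups were grown for 24 h in high-glucose medium with serum, antibiotics and non-essential amino acids. They share the parental line and the culture conditions, and each carries a hairpin, though not the same one. The labels do not say whether the silenced line is a clone or a pool. The titles of the control samples carry the word GFP, and the labels do not say what it stands for. There was 1 hairpin against Angpt2 and no rescue, so effects of this hairpin and of Angpt2 loss cannot be told apart. The comparison asks what silencing of Angpt2, which encodes the secreted ligand angiopoietin-2, does to transcripts of the tumour cells themselves.

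Melanocytes make melanin inside melanosomes, organelles related to lysosomes. The transcription factor MITF, whose gene is regulated by SOX10, PAX3 and cyclic AMP signalling downstream of the receptor MC1R, drives the genes of the pigment enzymes and of melanosome proteins. Tyrosinase and its relatives TYRP1 and DCT convert tyrosine into melanin on fibrils of PMEL, ion transporters set the melanosome's pH and metal content, the Hermansky-Pudlak syndrome (HPS) complexes with RAB32, RAB38 and AP-3 deliver the enzymes, and RAB27A with melanophilin and myosin Va carries finished melanosomes to the cell edge.

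Promoter sequence is printed here for pigment genes and for Mitf, because MITF drives the genes of the pigment enzymes. MITF binds E-boxes, and the M-box is a longer E-box typical of pigment genes. RefSeq promoter windows (build GRCm38.p6, 250 bases before to 50 bases after a gene's start) were matched to 28 of the 35 genes by symbol, in 36 windows. A gene counts as holding a motif if any of its windows does, so the counts of genes and the shares of windows below are unlike measures. The M-box core TCATGTG, searched on both strands, was present in windows of 6 of the 28 genes, Tyr, Tyrp1, Dct, Mc1r, Trpm1 and Hps1, and in 3.77% of all 32851 windows. It contains the shorter E-box CATGTG, which was present in 7 of the 28 genes (the same 6 and Oca2) and in 14.2% of all windows. The other E-box, CACGTG, was in windows of 8 of the 28 genes, Atp7a, Hps1, Hps3, Hps5, Mlph, Rab27a, Slc24a4 and Trpm1, and in 7.15% of all windows. The M-box core began 22 bases before the listed start in Tyr, 47 in Tyrp1 and 151 in Dct, where a copy on the opposite strand began 232 bases before the start. The stretches of 29 bases around the cores are given on each gene's own strand, with the core in capitals.
Tyr, chr7:87493517-87493545, minus strand: gaaaaagttagTCATGTGctttgcagaag
Tyrp1, chr4:80834155-80834183, plus strand: tggggagggagTCATGTGctgcctagtag
Dct, chr14:118052380-118052408, minus strand: tgcacttagggTCATGTGctaacaaagag
Dct, opposite-strand copy, chr14:118052461-118052489, minus strand: cttggctgggaCACATGAgcccaataaag
Mc1r, chr8:123407019-123407047, plus strand: gcacatgcccaTCATGTGgccaccctcag
Trpm1, chr7:64153682-64153710, plus strand: ccaaatcctcaTCATGTGcccaccccaaa
Hps1, chr19:42779976-42780004, minus strand: gcaggccccggTCATGTGgctgagtcacg

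The wider context of the Tyr and Dct cores, and the promoter of Mitf itself, are shown as the 250 bases before a listed start. Mitf has 3 listed starts. Before the most downstream of them lies the cyclic AMP response element TGACGTCA, the motif through which cyclic AMP signalling is known to act on Mitf in melanocytes. That motif, its own reverse complement, was in windows of 2 of the 28 genes, Mitf and Hps4, and in 1.79% of all windows. Capitals mark TCATGTG in Tyr and Dct and TGACGTCA in Mitf.
Tyr, chr7:87493513-87493762, minus strand: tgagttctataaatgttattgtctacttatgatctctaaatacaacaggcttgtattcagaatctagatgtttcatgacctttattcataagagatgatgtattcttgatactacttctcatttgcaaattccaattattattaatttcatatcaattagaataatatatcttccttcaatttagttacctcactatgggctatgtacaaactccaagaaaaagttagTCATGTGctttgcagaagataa
Dct, chr14:118052247-118052496, minus strand: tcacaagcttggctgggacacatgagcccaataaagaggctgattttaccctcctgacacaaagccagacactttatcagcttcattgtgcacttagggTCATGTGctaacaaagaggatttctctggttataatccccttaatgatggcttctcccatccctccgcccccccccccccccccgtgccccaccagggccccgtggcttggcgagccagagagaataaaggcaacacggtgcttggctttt
Mitf, chr6:97991533-97991782, plus strand: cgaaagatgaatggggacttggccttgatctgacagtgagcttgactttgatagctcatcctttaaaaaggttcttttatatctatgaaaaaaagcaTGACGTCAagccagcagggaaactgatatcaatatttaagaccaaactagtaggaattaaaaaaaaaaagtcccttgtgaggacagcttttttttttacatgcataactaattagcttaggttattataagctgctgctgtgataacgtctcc

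Values are normalized array intensities on a linear scale, with array medians over all rows between 74.5 and 76.2, and a log2 fold change is the mean log2 intensity in Angpt2 shRNA-1 cells minus that in controls. The targeted gene checked the labels, with Angpt2 at a log2 fold change of -1.33 (SE 0.21) and all 3 Angpt2 shRNA-1 arrays below the lowest control, though its adjusted limma p was 1.00. That call changed with the fit: blocking on replicate number gave an adjusted limma p of 0.046, and leaving out control replicate 1 a log2 fold change of -1.61 with an adjusted limma p of 0.0116. Control replicate 1 stood apart from the other arrays. It had the highest value of the 6 arrays for 25.8% of all genes, where each of the other 5 arrays had the highest for at most 21.4%. On that array 12 stress genes controlled by ATF4 and CHOP, a list added after earlier results of these data were known, had a median log2 deviation of 0.90 from their 6-array means, against -0.80 to 0.25 on the others. For the members given by array, the value without control replicate 1 therefore stands beside the log2 fold change where it turned the sign or moved the value by over 1.5 times. The part of the stress genes in the results was not tested.

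RET cells carried a strong melanocyte signature. Of the 35 genes, 33 lay above the median level of all genes and 21 above the 90th percentile, and the defining markers Mitf, Sox10, Tyr, Tyrp1, Dct, Pmel and Mlana were all among the 21. Pigment genes were among the brightest rows by rank of the mean intensity, Tyrp1 at number 4 of 22180, Dct at 7, Gpnmb at 12 and Pmel at 16. Probes differ in brightness, so these ranks order signals and not transcript numbers. Markers of other cell types were dim by comparison: 0 of 10 macrophage, 0 of 8 endothelial, 0 of 6 keratinocyte and 0 of 10 fibroblast markers lay above the 90th percentile. Of 8 measured genes of dedifferentiated melanoma cells 0 lay above that percentile, though 5 lay above the median level of all genes. Egfr lay below the median level, at 62.7 to 64.1 in controls and 68.5 to 78.8 in Angpt2 shRNA-1 cells. Above the median level were also 6 of the fibroblast, 1 of the macrophage, 1 of the keratinocyte and 0 of the endothelial markers. Of 8 measured neural crest and Schwann genes 8 lay above the median level and 1, Sox10, above the 90th percentile.

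**Figure D1:**
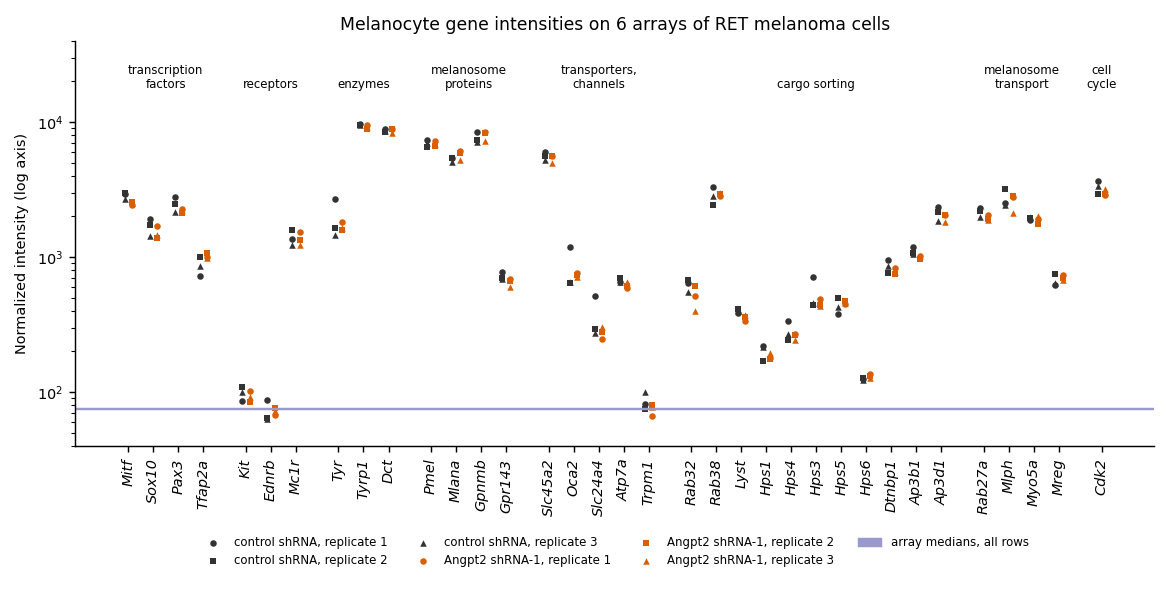
Normalized intensity (log axis) of the 35 genes on each array, ordered by role; black symbols are control shRNA, orange symbols Angpt2 shRNA-1, and the band marks the array medians of 74.5 to 76.2. Pigment enzymes and melanosome proteins sit at the top of the range, while Kit, Ednrb and Trpm1 lie close to the array medians.

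No gene of the 35 passed the adjusted threshold between the groups, and the estimated differences were small. The limma fit with Benjamini-Hochberg adjustment over all 22180 genes called 0 of the 35, and 0% of all genes. At an unadjusted p under 0.05, which 3.76% of all genes reached, 1 of the 35 was found, Mitf, toward lower intensity, and 2.24% of all genes reached it in that direction. Among genes above the median level these shares were 3.92% in either direction and 2.13% toward lower intensity. Log2 fold changes were negative for 27 of the 35 genes and positive for 8, with a median of -0.11 against -0.01 over all genes. Without control replicate 1 the count was 22 negative and 13 positive, and the median was -0.04. The 95% confidence interval of each of the 35 lay within a 2-fold change in either direction, and for 32 of them within a 1.5-fold change. The median half-width of these unadjusted intervals was 0.24, or 1.18-fold, so differences of that size or smaller could not be resolved for a typical gene of the set, even before adjustment. After adjustment over all genes far larger differences were not called either, that of Angpt2 at -1.33 included.

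**Figure D2:**
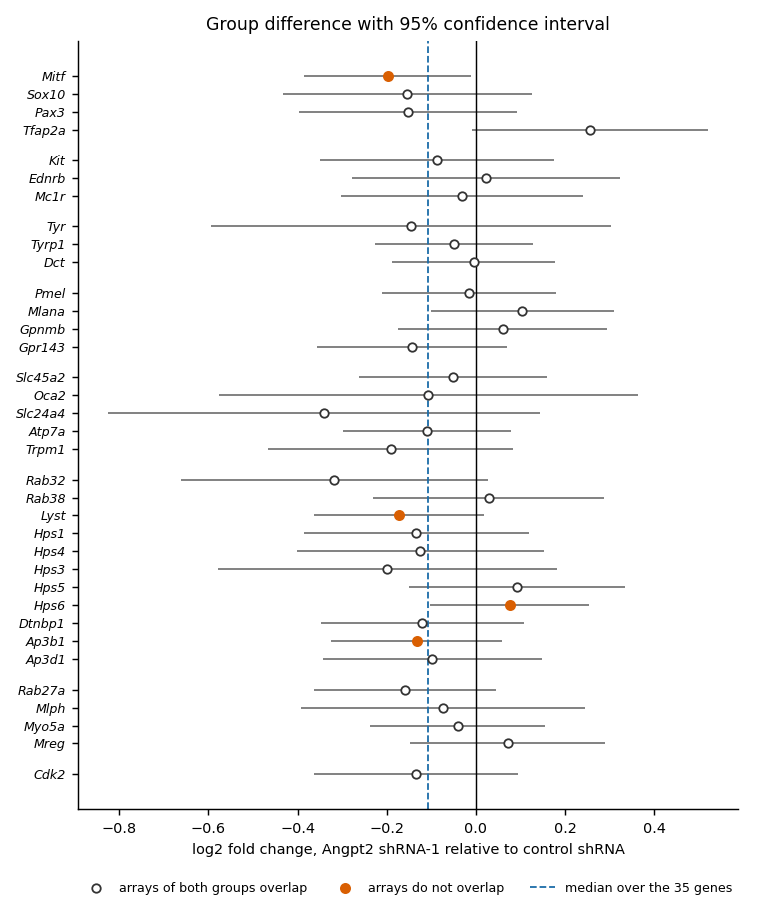
Log2 fold change of each of the 35 genes with its 95% confidence interval from the limma fit, ordered by role; filled points mark the 4 genes whose control and Angpt2 shRNA-1 arrays did not overlap. Most estimates lie left of 0, near the dashed median of -0.11, and only the interval of Mitf leaves out 0 without adjustment for multiple testing.

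Among the lineage transcription factors, Mitf, the master regulator of melanocytes, was lower in Angpt2 shRNA-1 cells on every array, though not past the adjusted threshold. Mitf (gene ID 17342, transcript cluster 17461132) had intensities of 2908, 2970 and 2681 on control replicates 1, 2 and 3 and of 2414, 2537 and 2502 on Angpt2 shRNA-1 replicates 1, 2 and 3. The highest Angpt2 shRNA-1 array thus lay below the lowest control array. The log2 level was 11.48 ± 0.08 in controls and 11.28 ± 0.04 in Angpt2 shRNA-1 cells (SD, n = 3 each), which puts Angpt2 shRNA-1 cells at 0.872 times the controls. The log2 fold change was -0.20 with SE 0.08 and a 95% confidence interval from -0.38 to -0.01, limma p = 0.0394 before and 1.00 after adjustment, and an exact permutation p of 0.1, two-sided, below which 3 against 3 arrays cannot go. Blocking on replicate number gave an unadjusted limma p of 0.0562, and over the fits that left out 1 array it ranged from 0.0259 to 0.115, under 0.05 only without control replicate 3.

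Sox10, the neural crest factor that keeps melanocytes in their lineage, had intensities of 1899, 1737 and 1441 in controls and 1708, 1387 and 1458 in Angpt2 shRNA-1 cells. Pax3, a paired-box factor that acts with Sox10 on Mitf, had 2798, 2464 and 2139 in controls and 2275, 2120 and 2227 in Angpt2 shRNA-1 cells. For both genes the groups overlapped, with control replicate 1 the highest array, at log2 fold changes of -0.15 (SE 0.12) for Sox10 and -0.15 (SE 0.11) for Pax3. Without control replicate 1 these values were -0.07 for Sox10 and -0.06 for Pax3. Tfap2a, the AP-2 alpha factor of neural crest and melanocyte differentiation, had the largest positive value of the set. Its intensities were 728, 996 and 859 in controls and 1009, 1067 and 985 in Angpt2 shRNA-1 cells, so that only control replicate 2 reached into the range of the other group. Its log2 fold change was 0.26 (SE 0.12), with limma p = 0.0567, exact permutation p = 0.2 and adjusted p = 1.00, and blocking on replicate number gave an unadjusted limma p of 0.0350. Without control replicate 1, its lowest array, the log2 fold change of Tfap2a was 0.14.

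The receptors that carry melanocyte growth signals differed in brightness more than in group difference. Kit, the receptor for stem cell factor, was dim, with intensities of 85.2, 110 and 101 in controls and 102, 84.3 and 91.6 in Angpt2 shRNA-1 cells. Ednrb, the endothelin receptor of migrating melanoblasts, was dimmer, at 87.9, 63.8 and 63.0 in controls and 67.4, 75.7 and 72.5 in Angpt2 shRNA-1 cells. The deposited values carry no detection calls, so signals of Kit and Ednrb cannot be told from background. Mc1r, the melanocortin receptor that raises cyclic AMP, was bright, at 1357, 1593 and 1236 in controls and 1524, 1339 and 1224 in Angpt2 shRNA-1 cells. The groups overlapped for all 3 receptors, and their log2 fold changes were -0.09 (SE 0.12) for Kit, 0.02 (SE 0.13) for Ednrb and -0.03 (SE 0.12) for Mc1r. Without control replicate 1 they were -0.19 for Kit, 0.18 for Ednrb, whose remaining arrays did not overlap between the groups, and -0.05 for Mc1r.

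The pigment enzymes were bright, and Tyrp1 and Dct were nearly constant over the arrays. Tyrp1, which stabilises tyrosinase, had intensities of 9651, 9432 and 9568 in controls and 9573, 8904 and 9212 in Angpt2 shRNA-1 cells. Dct, the dopachrome tautomerase, had 8953, 8473 and 8653 in controls and 8866, 8879 and 8244 in Angpt2 shRNA-1 cells. The highest array exceeded the lowest by 1.08-fold for Tyrp1 and 1.09-fold for Dct, and the log2 fold changes were -0.05 (95% confidence interval -0.23 to 0.13) and -0.01 (-0.19 to 0.18), the latter turning to 0.03 after quantile normalization and to 0.02 without control replicate 1. Tyr, the rate-limiting enzyme of melanin synthesis, had 2694, 1628 and 1460 in controls and 1804, 1591 and 1646 in Angpt2 shRNA-1 cells. One control array was therefore well above all others while the remaining 5 overlapped. The log2 level of Tyr was 10.86 ± 0.47 in controls and 10.71 ± 0.09 in Angpt2 shRNA-1 cells (SD, n = 3 each), a log2 fold change of -0.15 (SE 0.20) that was 0.12 without control replicate 1.

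Proteins that build the melanosome or sit in its membrane included the next brightest rows. Pmel, which forms the fibrils on which melanin is laid down, had intensities of 7410, 6546 and 6979 in controls and 7210, 6623 and 6856 in Angpt2 shRNA-1 cells. Mlana, a melanosome membrane protein and melanoma antigen, had 5449, 5430 and 5068 in controls and 6051, 5906 and 5202 in Angpt2 shRNA-1 cells. Gpnmb, a relative of Pmel found in melanosomes and also in macrophages, had 8486, 7364 and 7079 in controls and 8388, 8320 and 7175 in Angpt2 shRNA-1 cells. The groups overlapped for all 3 genes, with log2 fold changes of -0.02 (SE 0.09) for Pmel, 0.10 (SE 0.09) for Mlana and 0.06 (SE 0.10) for Gpnmb. Without control replicate 1 Pmel was at 0.03 and Gpnmb at 0.14. The macrophage markers, whose cells also express Gpnmb, had a summed intensity of 714 to 786 in controls and 724 to 786 in Angpt2 shRNA-1 cells over 10 genes. Gpr143, the melanosome receptor mutated in ocular albinism, ranged from 599 to 777 over the 6 arrays and had a log2 fold change of -0.14 (SE 0.09).

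Genes of melanosome transporters and channels held the widest spread between arrays. Oca2, a channel that sets melanosome pH, had intensities of 1184, 640 and 654 in controls and 758, 739 and 709 in Angpt2 shRNA-1 cells. Slc24a4, a cation exchanger linked to pigmentation, had 519, 294 and 274 in controls and 247, 276 and 301 in Angpt2 shRNA-1 cells. As for Tyr, control replicate 1 stood far above the rest. The other arrays overlapped between the groups for Slc24a4, while for Oca2 the other control arrays lay below all Angpt2 shRNA-1 arrays. The log2 fold changes were -0.11 (SE 0.21) for Oca2 and -0.34 (SE 0.21) for Slc24a4, and without control replicate 1 they were 0.18 and -0.05. Slc45a2, a transporter needed for tyrosinase activity and among the brightest rows, was also highest on control replicate 1, but only at 1.07 times the other arrays' median. It ranged from 5003 to 5998 over the 6 arrays, with a log2 fold change of -0.05 (SE 0.09). Atp7a, the copper pump that loads tyrosinase, ranged from 591 to 696 (-0.11, SE 0.08). Trpm1, a cation channel of melanocytes, was dim at 82.2, 74.9 and 99.6 in controls and 66.9, 79.7 and 77.3 in Angpt2 shRNA-1 cells (-0.19, SE 0.12) and cannot be told from background.

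**Figure D3:**
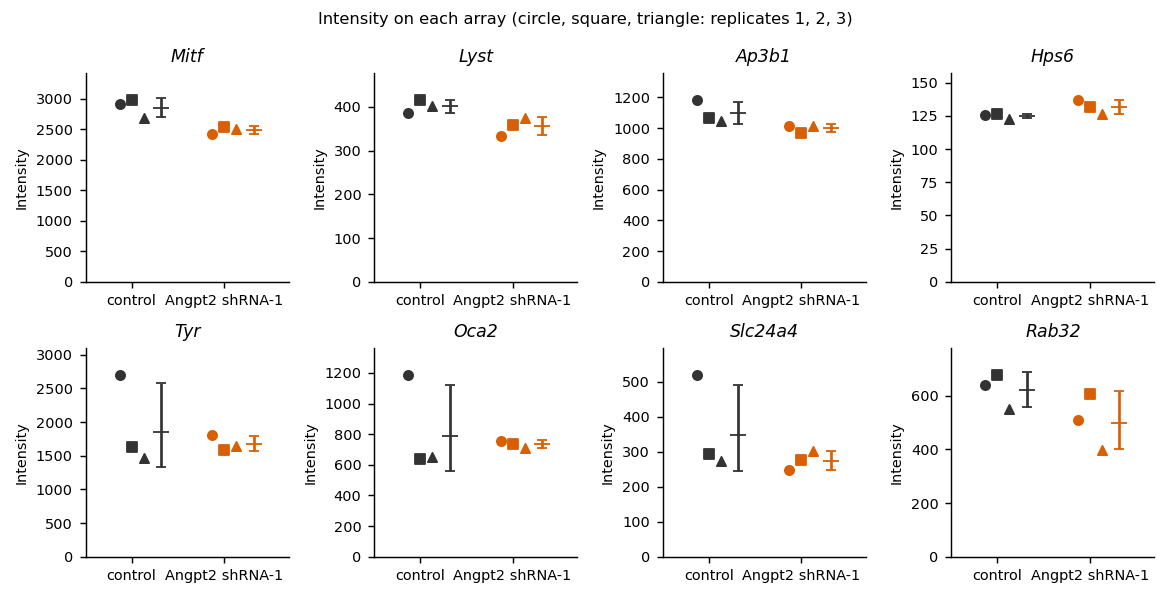
Intensity of 8 genes on each array, with circles, squares and triangles for replicates 1, 2 and 3, and beside them the mean ± SD of n = 3 arrays, computed on the log2 scale and drawn on a linear axis from 0. Mitf, Lyst, Ap3b1 and Hps6 separate the groups by small amounts, Tyr, Oca2 and Slc24a4 are set apart by control replicate 1, and Rab32 is lowest on Angpt2 shRNA-1 replicate 3.

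The cargo-sorting genes, at 11 of the 35 the largest role group, held 3 of the 4 genes whose arrays did not overlap between the groups. In the whole set 4 of 35 genes (Mitf, Lyst, Ap3b1 and Hps6) had no overlap, against 9.01% of all genes, and 3 of these were lower in Angpt2 shRNA-1 cells, against 5.48% of all genes, and 1 was higher, against 3.53%. Among genes above the median level 7.75% had no overlap, 4.64% lower and 3.11% higher. The share in the set is thus close to that over all genes. Without control replicate 1 the count in the set was 7, against 19.6% of all genes. Lyst, the lysosomal trafficking regulator mutated in beige mice, had intensities of 387, 415 and 402 in controls and 334, 359 and 375 in Angpt2 shRNA-1 cells, a log2 fold change of -0.17 (SE 0.08, limma p = 0.0711, exact permutation p = 0.1). Ap3b1, a subunit of the AP-3 adaptor that sorts tyrosinase, had 1180, 1064 and 1049 in controls and 1016, 969 and 1015 in Angpt2 shRNA-1 cells (-0.13, SE 0.08, limma p = 0.153, exact permutation p = 0.1), and was at -0.08 without control replicate 1. Hps6, of the HPS complex BLOC-2, had the smallest difference of the 4, at 125, 126 and 123 in controls and 137, 132 and 127 in Angpt2 shRNA-1 cells (0.08, SE 0.08, limma p = 0.361, exact permutation p = 0.1). Its arrays overlapped after quantile normalization and after centring each array on its median. The adjusted limma p was 1.00 for each of the 3 genes.

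Rab32 and Rab38, related small GTPases that bring tyrosinase and Tyrp1 to melanosomes, had unlike patterns. Rab32 had intensities of 640, 676 and 552 in controls and 511, 608 and 397 in Angpt2 shRNA-1 cells. Its lowest array was Angpt2 shRNA-1 replicate 3, and replicate 2 overlapped with the controls. Its log2 fold change was -0.32 (SE 0.15, limma p = 0.0660, exact permutation p = 0.2, adjusted p = 1.00), with -0.32, -0.15 and -0.48 within replicates 1, 2 and 3, and blocking on replicate number gave an unadjusted limma p of 0.0109. Without Angpt2 shRNA-1 replicate 3 the value was -0.15. Rab38 was brighter, ranging from 2434 to 3318, both ends of the range being control arrays, with a log2 fold change of 0.03 (SE 0.12). The difference between the log2 fold changes of Rab32 and Rab38 was not tested.

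The remaining sorting genes belong to the HPS complexes and AP-3. Hps3, of BLOC-2, had intensities of 707, 440 and 455 in controls and 490, 438 and 436 in Angpt2 shRNA-1 cells, again with control replicate 1 far above the rest, and its log2 fold change of -0.20 (SE 0.17) was 0.02 without that array. Hps5, the third BLOC-2 subunit, was lowest on control replicate 1 and ranged from 377 to 495 (0.09, SE 0.11). On that array these subunits of 1 complex thus lay on opposite sides of the other arrays. The BLOC-3 genes Hps1 and Hps4 ranged from 170 to 218 and from 242 to 338, with log2 fold changes of -0.13 (SE 0.11) and -0.12 (SE 0.12). A second, dimmer row for Hps1 gave -0.11. Dtnbp1, which encodes dysbindin of BLOC-1, ranged from 748 to 948 (-0.12, SE 0.10) and Ap3d1, the delta subunit of AP-3, from 1809 to 2354 (-0.10, SE 0.11).

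For the genes that carry finished melanosomes every 95% confidence interval included 0, as for each of the 35 genes but Mitf. Rab27a, the GTPase that recruits the motor to melanosomes, had intensities of 2323, 2193 and 1985 in controls and 2034, 1905 and 1874 in Angpt2 shRNA-1 cells. Control replicate 3 fell within the range of the other group, and the log2 fold change was -0.16 (SE 0.09, limma p = 0.113, exact permutation p = 0.2). Mlph, the melanophilin linker between Rab27a and myosin, ranged from 2124 on Angpt2 shRNA-1 replicate 3 to 3176 on control replicate 2 (-0.07, SE 0.14). Myo5a, the motor, ranged from 1750 to 2019 (-0.04, SE 0.09) and Mreg, melanoregulin, from 619 to 746 (0.07, SE 0.10). Cdk2, a cell cycle kinase gene under MITF control, ranged from 2895 to 3654 with a log2 fold change of -0.13 (SE 0.10). In the RefSeq annotation Cdk2 lies within the span of Pmel, and whether their probes share signal was not tested.

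Control replicate 1 held most of the highest values of the set. That array was the highest of the 6 for 21 of the 35 genes (60.0%), where it was the highest for 25.8% of all genes and 26.9% of genes above the median level. Control replicate 2 was the highest for 9 of the 35, Angpt2 shRNA-1 replicate 1 for 2, and each remaining array for 1. The median log2 deviation of the 35 genes from their 6-array means was 0.13 on control replicate 1 and between -0.06 and 0.02 on the other 5 arrays. Tyr, Oca2, Slc24a4 and Hps3 were at least 1.5-fold above the median of the other 5 arrays there, by 1.65, 1.67, 1.88 and 1.61-fold, as were 1.30% of all genes. The excess was not shared by the whole set: Tyrp1, Dct, Mlana and Mc1r were at 1.02, 1.03, 1.00 and 1.01 times the other arrays' median, and Tfap2a, Hps5 and Kit were at 0.73, 0.82 and 0.85 times it. The cystine transporter gene Slc7a11, which is a pigment gene (subtle gray) and also an ATF4 target, had an intensity of 1184 on control replicate 1 and 166 to 327 on the others, and the stress gene Ddit3 had 1108 against 205 to 424. The only other value of the set beyond 1.5-fold from the median of the remaining arrays was Rab32 on Angpt2 shRNA-1 replicate 3, below it.

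**Figure D4:**
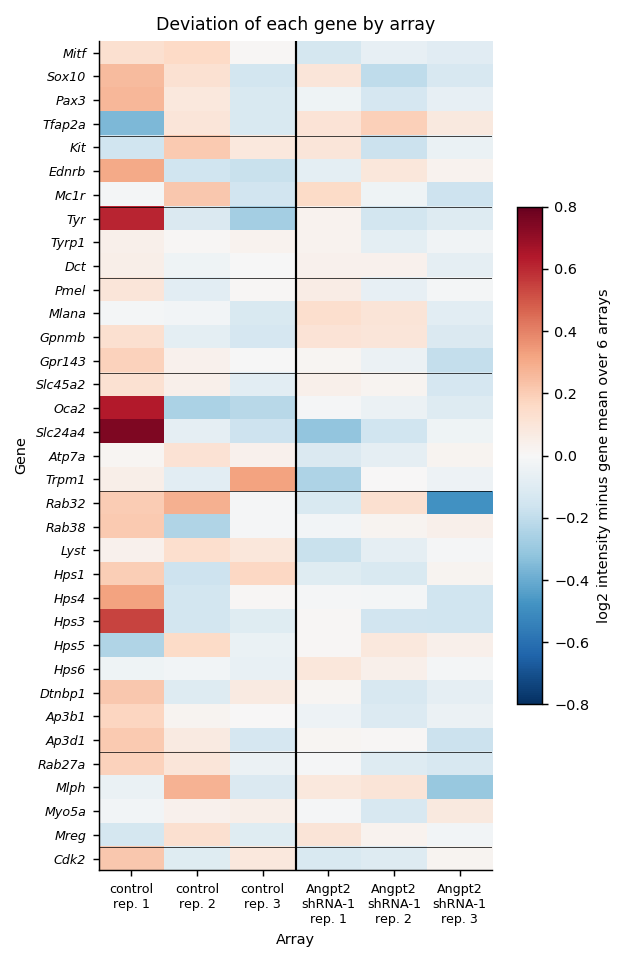
Log2 intensity of each of the 35 genes on each array minus the gene's mean over the 6 arrays, in red where higher and blue where lower, with a vertical line between the groups and thin lines between roles. The column of control replicate 1 is the reddest, led by Slc24a4, Oca2, Tyr and Hps3, and Tfap2a is its bluest cell.

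No correlation between Mitf and another gene of the set passed a test across the 6 cultures. Pearson and Spearman correlations of log2 intensity were computed between Mitf and each of the other 34 genes, and after Benjamini-Hochberg adjustment over the 34 exact permutation tests 0 passed, with 1 at an unadjusted p under 0.05 for Pearson's r (Lyst) and 2 for Spearman's rho (Lyst and Rab32). The number of orderings of 6 arrays sets a floor to these exact permutation p-values. After adjustment over 34 tests that floor left little room for a single gene to pass for Pearson's r. For Spearman's rho a single gene could not pass at all. The count of 0 therefore does not show an absence of correlation. Lyst had r = 0.84 (exact permutation p = 0.0431, adjusted p = 0.614) and rho = 0.89 (exact permutation p = 0.0333, adjusted p = 0.567). Without control replicates 1 and 2, the arrays farthest from the median of Mitf, r was 0.93. That value rests on control replicate 3 as the only control beside the Angpt2 shRNA-1 arrays. Both genes separate the groups, and the correlation of their deviations from the group means was 0.36. For the pigment enzymes r was lower, at r = 0.37 for Tyr, 0.38 for Tyrp1 and 0.01 for Dct (exact permutation p = 0.565, 0.458 and 0.986), and without the same arrays it was -0.99, 0.06 and -0.12. The value for Tyr turned its sign without those arrays and that for Tyrp1 fell close to 0. The correlations of deviations from the group means were 0.34 for Tyr, -0.49 for Tyrp1 and -0.11 for Dct. With 3 arrays in each group no correlation within a group could be given.

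Median spread between arrays was narrowest among the brightest genes and did not fall steadily with brightness below them. The highest array exceeded the lowest by 1.08-fold for Tyrp1 to 1.495-fold for Mlph among the 10 genes of the set above the 99th percentile of level, and by a median of 1.16-fold for all 222 genes there. For the 12 genes of the set between the 50th and 90th percentiles the median was 1.30-fold, as for all genes in that range.

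Other genes of the pathway, from lists drawn up by function, were not called either. Of 17 measured partners of the lineage factors, 15 had negative log2 fold changes and 2 positive, with a median of -0.07, and 1 had an unadjusted limma p under 0.05, against 3.76% of all genes. This was Met, the hepatocyte growth factor receptor and an MITF target, with 2465, 2262 and 2034 in controls and 2030, 1882 and 1866 in Angpt2 shRNA-1 cells. The log2 fold change of Met was -0.22 (SE 0.10), with an adjusted limma p of 1.00. Its control arrays lay above all Angpt2 shRNA-1 arrays, by a narrow margin for control replicate 3. Erbb3, a neuregulin receptor subunit of the neural crest lineage, was at -0.22 (SE 0.11) and Tfeb, a relative of Mitf, at -0.15 (SE 0.11).

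Of 30 measured further melanosome and pigment genes, 17 were negative and 13 positive (median -0.02), and 2 had an unadjusted limma p under 0.05, as had 3.76% of all genes. These were Bloc1s3, a BLOC-1 subunit (-0.33, SE 0.12), and Tpcn2, a melanosome and lysosome cation channel (-0.23, SE 0.09), each with an adjusted limma p of 1.00, while the kinesin Kif13a was at -0.16 (SE 0.09). Tpcn2 had 279, 249 and 279 in controls and 219, 227 and 242 in Angpt2 shRNA-1 cells, with no overlap. Bloc1s3 had 399, 313 and 356 in controls and 318, 258 and 273 in Angpt2 shRNA-1 cells, where control replicate 2 fell among the other group. Of 18 other MITF targets 11 were positive and 7 negative (median 0.02), with the lowest p for Dapk2 (0.23, SE 0.12), Lgals3 (0.34, SE 0.19) and Bhlhe41 (-0.16, SE 0.10). Of 13 lysosome genes shared with the relatives of MITF 12 were negative and 1 positive (median -0.05). The positive one was Lamp2 (0.32, SE 0.17), and Mcoln1 was at -0.13 (SE 0.10) and Sqstm1 at -0.17 (SE 0.15). Control replicate 1 was the highest array for Ctsb, Ctsl, Gla, Neu1, Atp6v0d1, Atp6v1b2, Atp6v1h, Mcoln1 and Sqstm1. For Ctsd, Hexa, Cln3 and Lamp2 another array was the highest. The count of signs in this list may therefore lean on control replicate 1, and it was not computed without that array. The 4 measured melanocyte ligands, 1 of them above the median level of all genes, had 2 negative and 2 positive values, Edn3 at -0.04 (SE 0.08), Kitl at -0.04 (SE 0.09) and Edn1 at 0.03 (SE 0.10). No measured gene of these 5 lists passed the adjusted threshold.

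Markers of other cell types did not pass the adjusted threshold. At an unadjusted limma p under 0.05 there was 1 of 10 macrophage markers, C1qb (0.23, SE 0.09), 1 of 8 dedifferentiated melanoma markers, Egfr (0.20, SE 0.09), and 0 of 8 neural crest and Schwann, 10 fibroblast, 8 endothelial and 6 keratinocyte markers, beside 3.76% of all genes. C1qb, at 58.3 to 62.6 in controls and 65.9 to 79.6 in Angpt2 shRNA-1 cells, and Egfr cannot be told from background. The lowest p in the other lists belonged to Erbb3, Pdgfrb (0.16, SE 0.09), Cdh5 (0.23, SE 0.20) and Trp63 (0.06, SE 0.08).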

How the data were processed

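Total RNA (100 ng per sample) of 6 RET cultures was hybridised to Affymetrix Mouse Gene 2.0 ST arrays, 1 biotin-labelled sample per array, per the labels' protocols. The deposited values are intensity per transcript cluster, normalized by the authors. Neither the normalization method nor the genome build is given in the sources used here. Values ran from 28.1 to 12624, as on a linear scale. Of 41345 clusters, 23521 had exactly 1 symbol in the platform annotation, 1814 several and 16010 none. The row with the highest mean was kept per gene, which left 22180 genes, 21994 of them matched by gene ID to RefSeq. Within-group correlations of log2 values were 0.983 to 0.993. The number of arrays limits precision, and there are no detection calls.

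Log2 values were fitted in R 4.3.3 by limma 3.58.1 (lmFit, eBayes). Two-sided p-values were adjusted by the Benjamini-Hochberg method across all genes, at a threshold of 0.05. The fit was tested on simulated data. Named genes are all 35 members, with values on every array for the defining markers, members with unadjusted p under 0.05 or without overlap, and the 10 largest by absolute fold change, and, in each other list, the 3 with the lowest p. Values on every array of Oca2, and any other gene beyond this rule, were added after values were seen. Marker lists beyond their lead genes are given by counts. Members and lists were chosen with earlier results of these data known. The main fit was unpaired, and replicate numbers were treated as pairs only in the alternative fit that blocked on them. Deviations from the group means correlated at 0.13, 0.21 and 0.14 for arrays of one number. Over the 35 genes alone these were -0.04, 0.20 and 0.30. Alternatives were the replicate number as a block, quantile normalization, median centring, only genes above the median level, averaging a gene's clusters, trend and robust options, a pseudocount of 16 and leaving out each array. The motif TGACGTCA was added after the data were seen. Asip was not analysed here, since its only table match names another gene.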

Additional observations from a re-analysis of the deposited data

How the results depend on the processing

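The fit called 0 of all genes, and 2 with the replicate number as a block, 1 with trend and robust options and 0 to 2 when 1 array was left out. None of the 35 melanocyte genes was called in any of these fits, and their lowest adjusted limma p was 0.852. At an unadjusted p under 0.05 there was 1 of the 35 on all arrays. There were 2 with the replicate block (Tfap2a and Rab32, beside 4.58% of all genes), 2 with a pseudocount of 16 (Mitf and Lyst, beside 3.70%), and 0 to 4 with 1 array left out, where 2.65% to 5.75% of all genes passed. The 4 came without control replicate 3, with the 5.75%, and the 0 without control replicate 1, Angpt2 shRNA-1 replicate 1 or Angpt2 shRNA-1 replicate 3. Genes without overlap numbered 4 on all arrays and 5 to 12 with 1 array left out, where 16.3% to 21.7% of all genes had none. The median log2 fold change of the set stayed negative, between -0.12 and -0.04.

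Some values with an adjusted p above the threshold changed sign. Tyr, Hps3 and Oca2, at -0.15, -0.20 and -0.11 on all arrays, did so without control replicate 1. Dct was at 0.029 after quantile normalization. With 1 array left out the log2 fold changes ran from -0.32 to 0.12 for Tyr, -0.024 to 0.030 for Dct, -0.061 to 0.028 for Pmel, -0.32 to 0.022 for Hps3, -0.26 to 0.18 for Oca2, -0.060 to 0.18 for Ednrb and -0.12 to 0.068 for Mc1r. The cause was not tested. In the fits without 1 array the smaller number of samples applies.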
